A study of Homo sapiens with 4 samples.

Results

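Genes whose products move nucleosomes, or write, erase or read the chemical marks on histones and DNA, were followed in HCT116 cells treated with the histone deacetylase inhibitor MS-275, with hydroxyurea, or with both. The members were chosen by symbol alone. A gene belonged to the set where the symbol that the array platform gives its transcript cluster began with KDM, KMT, KAT, SETD, SMARC (A to E), CHD, BRD, ARID, ING, PHF, SIRT, EZH, CBX, DNMT or TET followed by a number (after SMARCA to SMARCE by anything), and the brightest cluster stood for a symbol with several. Genes of the deacetylases themselves (HDAC) were not included. The rule found 106 of 14884 named genes, on 110 transcript clusters, and used no measured difference between the conditions.

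HCT116 is a human colorectal cancer cell line. The 4 conditions were untreated cells, 1 mM hydroxyurea, 2 µM MS-275, and the same doses of both drugs (MS-275/hydroxyurea), each drug given for 24 h from 24 h after seeding. RNA of each condition was hybridised to 1 Affymetrix array, so no error can be set beside any value, no difference was tested, and an effect of a drug and a difference between 2 cultures or 2 arrays cannot be told apart. MS-275 was compared with its matching control without hydroxyurea (MS-275 against untreated) and with it (MS-275/hydroxyurea against hydroxyurea), and these 2 comparisons share no array. The 2 hydroxyurea comparisons likewise share none with each other, but each shares arrays with the MS-275 comparisons.

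Lysine acetyltransferases (KAT) add and deacetylases remove acetyl groups on histone tails, and MS-275 (entinostat) inhibits class I deacetylases. Methyl groups on histone lysines are written by KMT, SETD and EZH proteins and erased by KDM proteins. PHD fingers and chromodomains can read such methyl marks, and bromodomains bind acetylated lysines. CHD and SWI/SNF enzymes use ATP to slide or remodel nucleosomes, and DNMT and TET enzymes add and oxidise methyl groups on cytosine. Hydroxyurea inhibits ribonucleotide reductase, depletes deoxynucleotides and stalls replication forks.

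Of the 106 members, 100 were protein-coding genes and 6 were non-coding loci or pseudogenes that carry a member's name (BRD7P3, CBX3P2, ING2-DT, KDM4A-AS1, KDM7A-DT and KMT2E-AS1). A total of 92 members, 91 protein-coding genes and KMT2E-AS1, passed a filter on dim clusters. It asked for a geometric mean intensity over the 4 arrays of at least 90.5, the median of the named clusters. The 14 members under the filter were ARID3C, DNMT3L, KDM4E, KDM5D, KDM8, PHF21B, PHF24, SETD9, SIRT4 and the other 5 non-coding loci. Of all 14884 named genes, 7649 passed. Geometric mean intensities of the members ran from 7.51 to 1687 with a median of 216. Intensities of different clusters are not comparable as amounts of RNA. Only clusters with exactly 1 symbol were used, and among them were 0 SMARC genes and 0 of the 5 ING protein genes. The catalytic subunits SMARCA2 and SMARCA4 and other genes without such a cluster were therefore not analysed here. A call here means a difference of at least 1.5-fold, and all differences are log2 ratios of intensities. In these cell populations, a lower level in every cell and fewer cells with the RNA cannot be told apart.

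The 3 members highest and the 3 lowest under MS-275, by the smaller of their 2 differences, are shown with an upstream window. It holds the 250 bases upstream of the most upstream start in RefSeq. KDM7A among them was called only under hydroxyurea. ARID1A and ARID1B, called lower in both MS-275 comparisons, are not shown. Windows are 5′ to 3′ on the strand of the gene (GRCh38.p14, sequences from RefSeq). Capitals mark 3 motifs on either strand, the GC box letters GGGCGG or CCGCCC, the E2F letters TTTCCCGC or GCGGGAAA, and the CCAAT box letters CCAAT or ATTGG. GC box and E2F letters can overlap, and so can GC boxes with each other. KDM1B lies at chr6:18155172-18155421 on the plus strand, KDM5B at chr1:202808422-202808671 on the minus strand, KDM7A at chr7:140176984-140177233 on the minus strand, PHF19 at chr9:120877189-120877438 on the minus strand, CHD3 at chr17:7888539-7888788 on the plus strand, and PHF2 at chr9:93576334-93576583 on the plus strand.
KDM1B: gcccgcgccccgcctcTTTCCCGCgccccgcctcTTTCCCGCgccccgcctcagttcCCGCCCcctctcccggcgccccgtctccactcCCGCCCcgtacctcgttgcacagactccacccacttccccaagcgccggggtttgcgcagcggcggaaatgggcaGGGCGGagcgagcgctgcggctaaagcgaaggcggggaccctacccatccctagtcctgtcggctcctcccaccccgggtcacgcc
KDM5B: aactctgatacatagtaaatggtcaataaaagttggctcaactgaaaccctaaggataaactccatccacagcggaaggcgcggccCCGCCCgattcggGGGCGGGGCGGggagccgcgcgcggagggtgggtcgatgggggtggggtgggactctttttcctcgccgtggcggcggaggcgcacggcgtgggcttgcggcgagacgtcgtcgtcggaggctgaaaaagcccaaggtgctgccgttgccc
KDM7A: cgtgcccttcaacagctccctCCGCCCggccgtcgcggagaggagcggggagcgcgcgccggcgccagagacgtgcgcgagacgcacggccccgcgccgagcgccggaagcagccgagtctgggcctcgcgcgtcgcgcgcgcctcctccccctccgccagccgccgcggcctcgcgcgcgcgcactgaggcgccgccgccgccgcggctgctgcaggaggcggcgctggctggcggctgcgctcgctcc
PHF19: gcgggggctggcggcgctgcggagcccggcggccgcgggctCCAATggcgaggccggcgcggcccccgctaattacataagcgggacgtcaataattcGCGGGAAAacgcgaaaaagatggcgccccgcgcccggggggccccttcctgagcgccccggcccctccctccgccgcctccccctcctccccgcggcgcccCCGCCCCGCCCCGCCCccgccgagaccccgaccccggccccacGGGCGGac
CHD3: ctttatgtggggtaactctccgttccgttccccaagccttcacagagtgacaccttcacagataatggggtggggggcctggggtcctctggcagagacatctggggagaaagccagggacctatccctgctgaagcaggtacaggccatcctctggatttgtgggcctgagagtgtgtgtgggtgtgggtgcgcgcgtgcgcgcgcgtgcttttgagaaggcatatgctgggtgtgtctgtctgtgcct
PHF2: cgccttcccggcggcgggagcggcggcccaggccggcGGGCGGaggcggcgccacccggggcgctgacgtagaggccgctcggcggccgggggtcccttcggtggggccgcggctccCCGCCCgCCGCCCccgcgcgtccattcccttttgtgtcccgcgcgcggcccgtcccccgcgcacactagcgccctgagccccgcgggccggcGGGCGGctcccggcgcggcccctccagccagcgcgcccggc

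Of these windows, those of KDM1B and KDM5B each held 3 GC boxes, that of KDM7A 1, those of PHF19 and PHF2 4 each and that of CHD3 0. The KDM1B window also held the E2F letters 2 times and the PHF19 window 1 time, beside 1 CCAAT box. The GC content was 58.8% for CHD3 and 84.8% for PHF2, the lowest and the highest of the 6. A window was at hand for 80 of the 92 members past the filter and for 6108 of all 7649 genes. At least 1 GC box stood in 62.5% of the member windows and 70.5% of all windows, the E2F letters in 6.25% (5 windows) and 2.59%, and the CCAAT letters in 32.5% and 35.6%. The E2F letters thus stood in 1 window of each direction. KDM7A and its divergent non-coding neighbour KDM7A-DT start 278 bases apart on opposite strands of chromosome 7 (positions 140176983 and 140177261), so the printed KDM7A window lies between the 2 starts.

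With MS-275, KDM1B and KDM5B were higher and PHF19, CHD3, PHF2, ARID1A and ARID1B lower in both backgrounds. Without hydroxyurea, 3 of the 92 members were called higher (KDM1B, KDM5B and ARID5B) against 6.94% of all genes past the filter, and 9 were called lower (PHF19, PHF2, CHD2, CHD3, ARID1B, KAT6B, ARID1A, KMT2D and TET1) against 6.84%. Under hydroxyurea, 6 members were called higher (KDM1B, KDM7A, KDM5B, ARID5A, KDM3A and KMT2C) against 8.67% of all genes, and 7 lower (PHF19, CHD3, KAT2A, PHF5A, PHF2, ARID1A and ARID1B) against 5.41%. Called in the same direction in both backgrounds were KDM1B and KDM5B as higher, 2.17% of members against 4.85% of all genes, and PHF19, CHD3, PHF2, ARID1A and ARID1B as lower, 5.43% against 2.92%. The member shares lay within a few points of the shares of all genes throughout, so the counts by themselves do not set the members apart.

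The median member difference was -0.10 without hydroxyurea and -0.08 with it, and the medians of all genes were -0.01 and 0.00. A value below 0 in both backgrounds was seen for 45 members (48.9%, against 38.8% of all genes) and above 0 in both for 24 (26.1%, against 37.7%). Over the 92 members the 2 MS-275 differences had a Pearson r of 0.83 and a Spearman rho of 0.74, and over all 7649 genes 0.79 and 0.74. These points share the 4 arrays and their joint normalisation, so the coefficients are a description across genes and not a measure of replicate error.

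**Figure D1:**
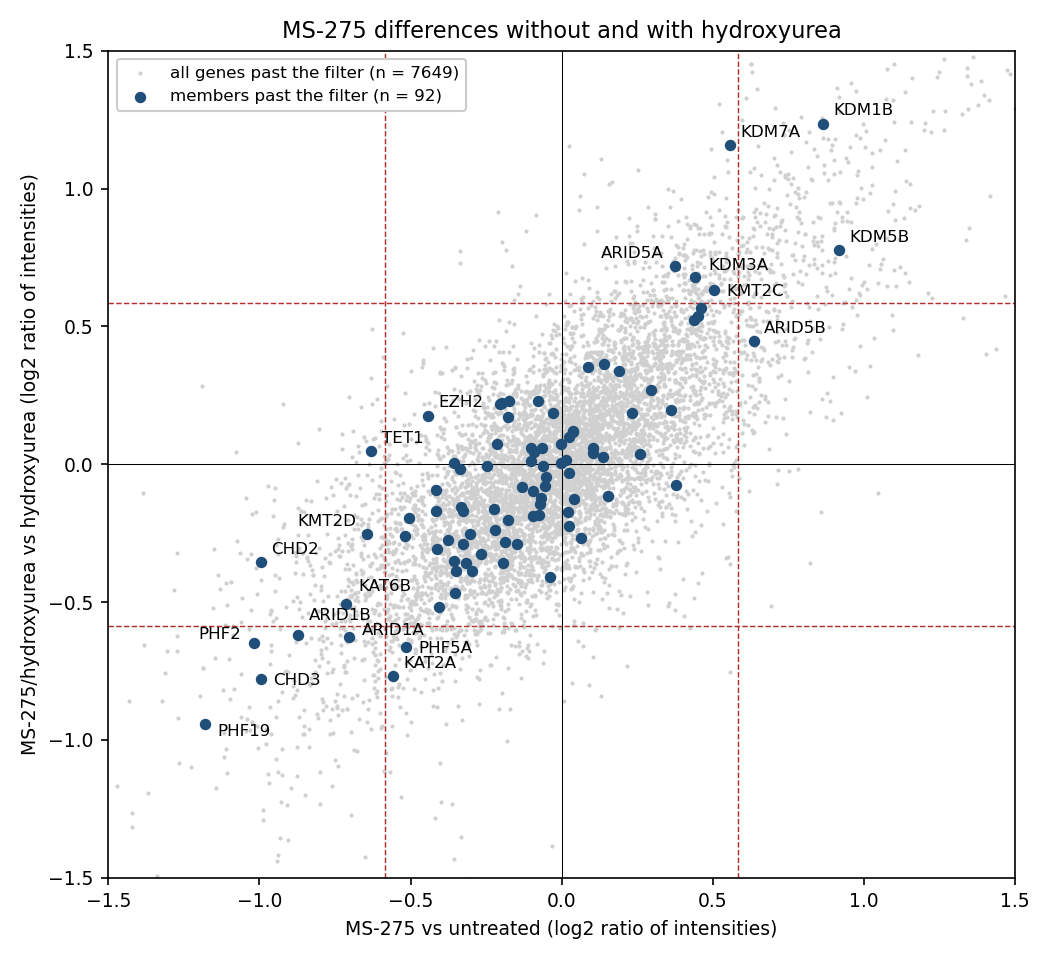
Log2 ratio of intensities with MS-275 without hydroxyurea (horizontal) against that under hydroxyurea (vertical) for 92 members (blue) and all 7649 genes past the filter (grey, 78 lie outside the axes). Dashed lines mark 1.5-fold, and KDM1B and KDM5B lie beyond them at the upper right and PHF19, CHD3, PHF2, ARID1A and ARID1B at the lower left.

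Demethylases of histone H3 lysine 4, which erase a mark of active promoters and enhancers, held the 2 members called higher in both backgrounds. KDM1B (LSD2), a flavin-dependent enzyme that removes mono- and dimethyl marks, had intensities of 321 untreated, 251 with hydroxyurea, 585 with MS-275 and 590.2 with both drugs. Both arrays with MS-275 lay above both without it, by 1.82-fold without and 2.36-fold with hydroxyurea. KDM5B (JARID1B), which removes trimethyl and dimethyl marks, read 363, 317, 687 and 543 on the arrays in the same order. It was 1.89-fold higher with MS-275 alone and 1.71-fold higher under hydroxyurea, and the arrays with MS-275 again lay above the others.

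The closest relatives of these enzymes did not share the differences. KDM1A (LSD1), the other flavin-dependent demethylase and a partner of deacetylase complexes, read 1382 untreated, 1035 with hydroxyurea, 1199.6 with MS-275 and 1205 with both. Its highest value was the untreated one, and MS-275 lay 1.15 times lower without and 1.16-fold higher with hydroxyurea. KDM5A and KDM5C, paralogs of KDM5B, were within 1.09-fold in both MS-275 comparisons. Over the 5 H3K4 demethylases past the filter, the median MS-275 difference was 0.04 without and 0.22 with hydroxyurea. Above 0 in both were 4 of the 5 (80%, against 37.7% of all genes).

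**Figure D2:**
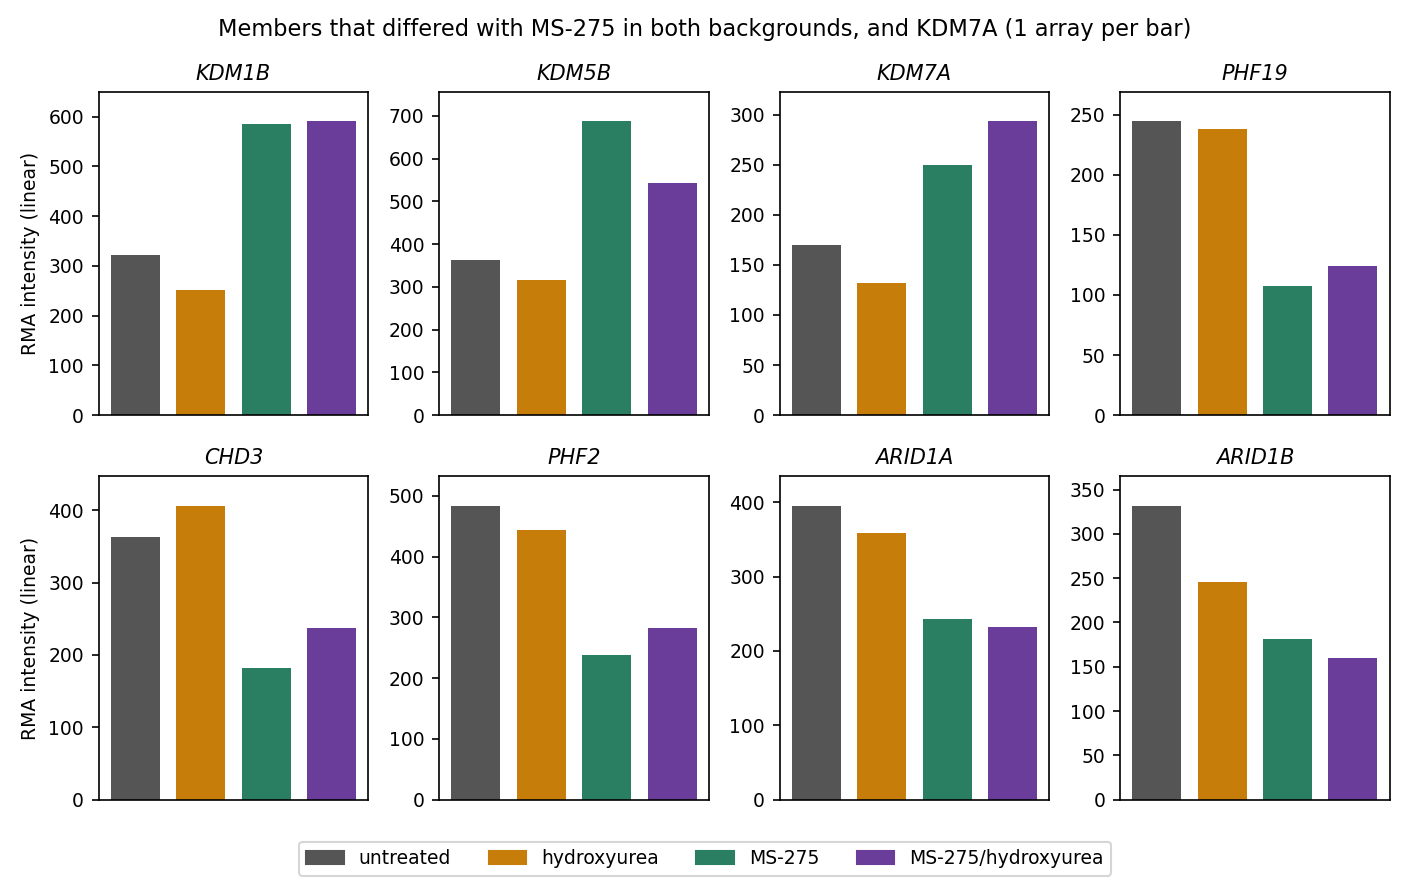
RMA intensity on a linear scale, from 0, on each of the 4 arrays for the 7 members called in the same direction in both MS-275 comparisons and for KDM7A; each bar is 1 array and has no error. For KDM1B, KDM5B and KDM7A both MS-275 bars are taller than both others, and for the other 5 genes both are shorter.

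Among the other lysine demethylases, the values spread to both sides. KDM7A, which removes dimethyl marks from H3 lysines 9 and 27, read 169.6 untreated, 132 with hydroxyurea, 249.6 with MS-275 and 293 with both. Its 2 values with MS-275 lay above the others, and the difference was 1.47-fold without hydroxyurea, just short of a call, and 2.23-fold with it. The divergent transcript KDM7A-DT, under the filter, read 47.9, 37.3, 47.5 and 58.0, with the highest value also in the array with both drugs. KDM3A, an H3K9 demethylase, read 163, 168, 222 and 269.9 and was 1.36-fold and 1.60-fold higher with MS-275.

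PHF2, a JmjC protein linked to removal of H3K9 dimethylation, lay on the lower side. It read 484 untreated, 443 with hydroxyurea, 238 with MS-275 and 283 with both, 2.03 times lower without and 1.57 times lower with hydroxyurea. ARID5B, the DNA-binding protein that forms a complex with PHF2, was on the higher side at 197, 189, 306 and 258, or 1.55-fold and 1.36-fold higher with MS-275. KDM3B, which is the paralog of KDM3A, was 1.33 and 1.24 times lower. KDM6B, an H3K27 demethylase, read 218, 223, 222 and 218, so its 4 values hardly differed. Over the 13 members of this group past the filter, medians were -0.06 and 0.01.

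Of the 14 methyltransferases and other SET domain proteins past the filter, KMT2D was called lower with MS-275 alone (6.84% of all genes) and KMT2C higher under hydroxyurea (8.67%). No other was called, so the counts are near the shares of all genes. Their medians were -0.23 and -0.26, and 8 of the 14 (57.1%, against 38.8% of all genes) were below 0 in both backgrounds. The paralogs KMT2C (MLL3) and KMT2D (MLL4), which place monomethyl marks on H3K4 at enhancers, lay on opposite sides. KMT2C read 515 untreated, 353 with hydroxyurea, 731 with MS-275 and 548 with both, which is 1.42-fold and 1.55-fold higher with MS-275. Here hydroxyurea went the other way, so the array with both drugs was near the untreated one. KMT2D read 366, 352, 234 and 295, or 1.56 times lower without and 1.19 times lower with hydroxyurea. SETD3, a methyltransferase best known for actin, was 1.06-fold and 1.28-fold higher. The H4K20 trimethylating enzyme KMT5C was 1.04-fold higher without and 1.20 times lower with hydroxyurea.

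The 7 acetyltransferases, which act against the enzymes that MS-275 inhibits, had the median -0.38 with MS-275 alone and -0.28 under hydroxyurea. Below 0 in both were 5 of the 7 (71.4%, against 38.8% of all genes). KAT2A (GCN5), the acetyltransferase of the SAGA and ATAC complexes, read 483 untreated, 599 with hydroxyurea, 328 with MS-275 and 351 with both. Its values with MS-275 were the 2 lowest, by 1.47 and 1.70 times. Its paralog KAT2B (PCAF) was 1.20-fold and 1.03-fold higher with MS-275. KAT6B, an H3 acetyltransferase of the MYST family, read 342, 278, 208 and 195, 1.64 and 1.42 times lower. KAT5 (TIP60), which acetylates H4 and the kinase ATM, read 152, 132, 114 and 92.6, so it was 1.33 and 1.43 times lower with MS-275. KAT7 (HBO1), an acetyltransferase tied to replication origins, was 1.30 and 1.21 times lower.

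Of the 10 CHD remodelers, CHD2 and CHD3 were called lower with MS-275 alone (6.84% of all genes) and CHD3 also under hydroxyurea (5.41%). CHD3, an ATPase of the NuRD complex that couples remodelling to deacetylation, read 363 untreated, 406 with hydroxyurea, 182 with MS-275 and 237 with both. Both arrays with MS-275 lay below the others, by 1.99 and 1.71 times. The NuRD ATPase CHD4, by contrast, was within the 1.5-fold limit at 1599.7, 1411, 1269 and 1268, the 2 MS-275 values being lower by 1.26 and 1.11 times. CHD2 read 381, 255, 191 and 199, which was 1.99 times lower with MS-275 alone and 1.28 times lower under hydroxyurea. CHD7, a remodeler bound at enhancers, lay on the higher side at 208, 163, 283 and 234, or 1.36-fold and 1.44-fold. The median of the 10 CHD genes was -0.22 without hydroxyurea and close to 0 with it.

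ARID1A and ARID1B, the alternative DNA-binding subunits of the canonical SWI/SNF (BAF) complex, were both lower. ARID1A read 395 untreated, 359 with hydroxyurea, 243 with MS-275 and 233 with both, 1.63 and 1.54 times lower with the inhibitor. ARID1B read 332, 246, 181 and 159.8, 1.83 and 1.54 times lower, and its value in the array with both drugs was 2.08 times below untreated. For each gene, both MS-275 arrays lay under both others. PHF10, a subunit of the related PBAF form, was 1.43 and 1.20 times lower, and BRD7, another PBAF subunit, 1.16 times lower without and 1.05-fold higher with hydroxyurea. ARID3B, a DNA-binding protein outside this complex, read 118, 141, 162 and 204 and was 1.37-fold and 1.45-fold higher. ARID5A, an RNA-binding protein known for stabilising inflammatory messages, read 112, 117, 145 and 192, or 1.30-fold and 1.65-fold higher.

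PHF19, a Polycomb-like protein that helps bring the H3K27 methyltransferase complex PRC2 to chromatin, had the lowest MS-275 differences of the set. It read 244 untreated, 238 with hydroxyurea, 108 with MS-275 and 124 with both, 2.27 and 1.92 times lower. Hydroxyurea by itself left it close to untreated. PHF1, another Polycomb-like protein, was 1.02-fold higher without and 1.17 times lower with hydroxyurea, and its 3 clusters did not read alike, since the dimmest of them was higher with MS-275 in both backgrounds (0.31 and 0.08). PHF5A, a subunit of the SF3b splicing complex despite its PHD-like fold, read 246, 257, 172 and 162, or 1.43 and 1.58 times lower. PHF20L1, a reader of methyl-lysine, was 1.38-fold and 1.48-fold higher, and PHF3, which binds RNA polymerase II, was within 1.05-fold. The 14 PHD finger genes of this group past the filter had medians of -0.08 and -0.16.

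None of the 10 BRD and CBX genes past the filter was called in either MS-275 comparison, and their medians were -0.12 in both backgrounds. CBX5 (HP1 alpha), which binds H3K9 methylation, read 703 untreated, 827 with hydroxyurea, 679 with MS-275 and 802 with both, and the BET protein BRD2 463, 546, 442 and 501. For both genes the arrays with MS-275 lay within 1.09-fold of their controls. None of the 6 sirtuins past the filter, deacetylases that use NAD and are not targets of MS-275, was called either, and SIRT1 was within 1.04-fold. With 6.94% of all genes called higher and 6.84% lower with MS-275 alone, 0 calls among so few genes are near the shares of all genes.

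**Figure D3:**
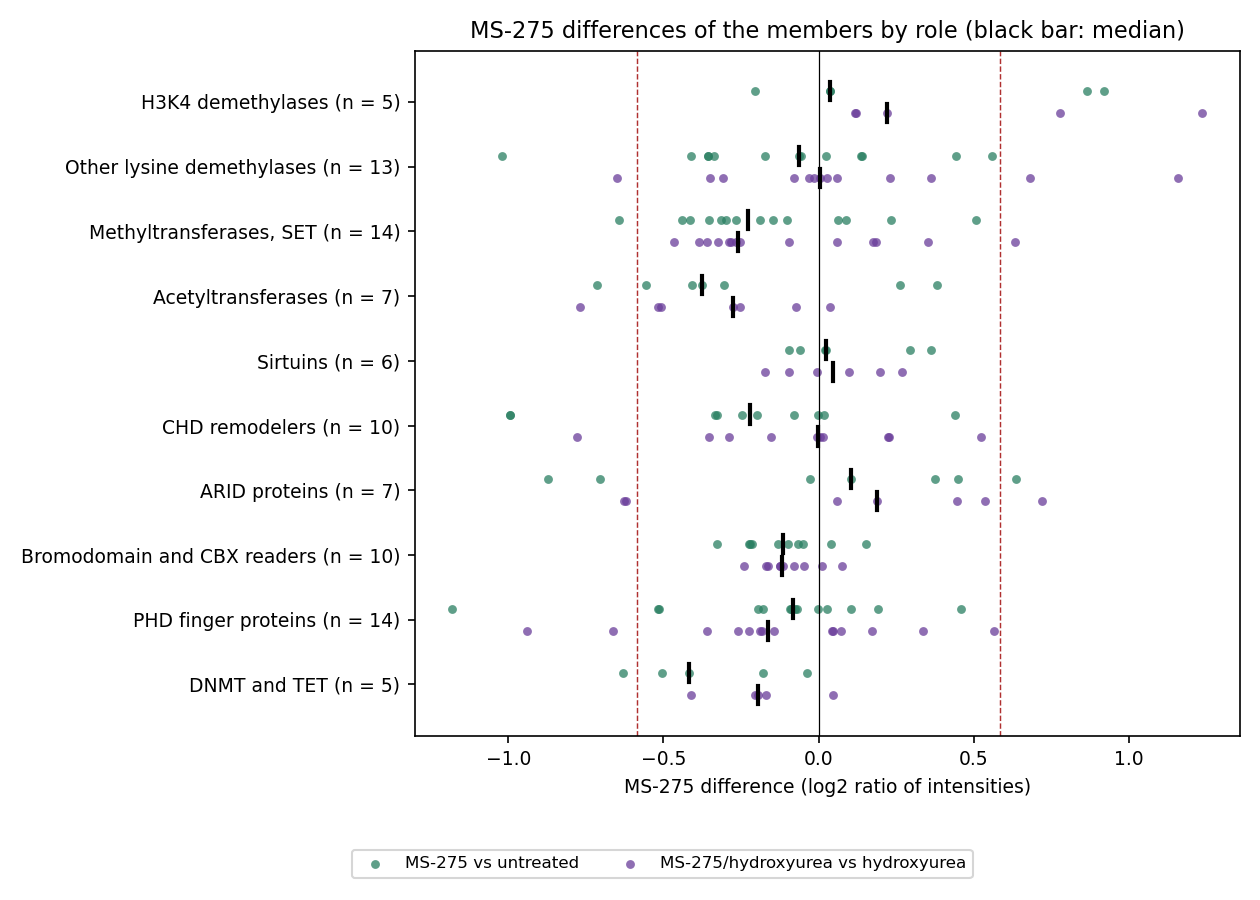
MS-275 differences (log2 ratio of intensities, horizontal) of the 91 protein-coding members past the filter by role, without hydroxyurea (green) and with it (purple). Each point is 1 gene, black bars are medians and dashed lines 1.5-fold. The acetyltransferases and the DNMT and TET genes have medians between -0.42 and -0.20, and no bromodomain, CBX or sirtuin gene lies past a dashed line.

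Of the 5 DNMT and TET genes past the filter, TET1 was called lower with MS-275 alone (6.84% of all genes were) and none was called under hydroxyurea. DNMT1, the maintenance methyltransferase that follows the replication fork, read 1818 untreated, 1994 with hydroxyurea, 1283 with MS-275 and 1741 with both, 1.42 and 1.14 times lower with MS-275. DNMT3B, a de novo methyltransferase, read 251, 303, 188 and 269, or 1.33 and 1.12 times lower. TET1, which oxidises 5-methylcytosine, read 229.9, 189, 149 and 195, 1.55 times lower with MS-275 alone and 1.03-fold higher under hydroxyurea. The array with MS-275 alone was the lowest of the 4 for these 3 genes. DNMT3A was 1.03 and 1.33 times lower and TET2 1.13 and 1.15 times lower. Over these 5 genes the medians were -0.42 and -0.20, and for DNMT3A and TET2 the difference under hydroxyurea was the larger one.

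Genes of replication-coupled chromatin assembly are not members and are given beside DNMT1, EZH2 and TET1. Of 14 such genes on the list, 8 had a named cluster and all 8 passed the filter. With MS-275 alone 6 were called lower (6.84% of all genes) and under hydroxyurea 1 was (5.41%), with medians of -0.65 and -0.32. That 1 gene was SUV39H1, which is also on the list of H3K9 methylation given further below. With hydroxyurea added to MS-275, 4 of the 8 were called higher (4.84% of all genes), with a median of 0.52. PCNA, the sliding clamp of replication, read 1177 untreated, 1736 with hydroxyurea, 746 with MS-275 and 1566 with both, and UHRF1, which brings DNMT1 to hemimethylated DNA, 693, 811, 344 and 625. The part of these genes in the values of DNMT1, EZH2 and TET1 was not tested.

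Hydroxyurea went with fewer calls among the members than MS-275. Without MS-275, 1 of 92 members was called higher, KAT2B, against 3.12% of all genes, and 0 were called lower against 1.27%. In the presence of MS-275, KAT2B, CHD5 and EZH2 were called higher against 4.84% of all genes and 0 members lower against 1.03%. In both backgrounds it was KAT2B alone, against 1.36% of all genes higher and 0.275% lower. Median member differences were -0.04 without and 0.03 with MS-275, and those of all genes 0.01 and 0.03. The 2 hydroxyurea differences had a Pearson r of 0.60 and a Spearman rho of 0.60 over the members, against 0.53 and 0.47 over all genes.

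KAT2B, an acetyltransferase of histone H3 and of p53, read 118 untreated, 227 with hydroxyurea, 142 with MS-275 and 233 with both. Both hydroxyurea arrays lay above both others, by 1.92-fold without and 1.64-fold with MS-275. CHD5, a NuRD-type ATPase known mainly from neural tissue, read 93.9, 122, 81.8 and 142, or 1.30-fold and 1.74-fold higher, at intensities close to the filter. CBX2, a Polycomb chromodomain protein, was 1.24-fold and 1.34-fold higher, and DNMT3B 1.21-fold and 1.43-fold. SIRT1, read at 354, 421, 339 and 419, was 1.19-fold and 1.24-fold higher and did not reach a call.

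On the lower side no member was called, and KMT2C, at 1.46 and 1.34 times lower with hydroxyurea, was the lowest member by the smaller of its 2 differences. In a single background CHD2 came nearest to a call without MS-275, at 1.49 times lower, and KAT14 with it, at 1.46 times lower. KDM4C, a demethylase of H3K9 and H3K36, read 179 untreated, 126 with hydroxyurea, 197 with MS-275 and 162 with both, 1.42 and 1.22 times lower. CHD7 was 1.28 and 1.21 times lower, PHF14, a nucleosome reader, 1.23 and 1.29 times, and EZH1 1.21 and 1.25 times. KMT2C, KDM4C, CHD7, PHF14 and EZH1, all lower with hydroxyurea, were above their controls with MS-275. The lowest of the 4 values of each was therefore that with hydroxyurea alone.

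**Figure D4:**
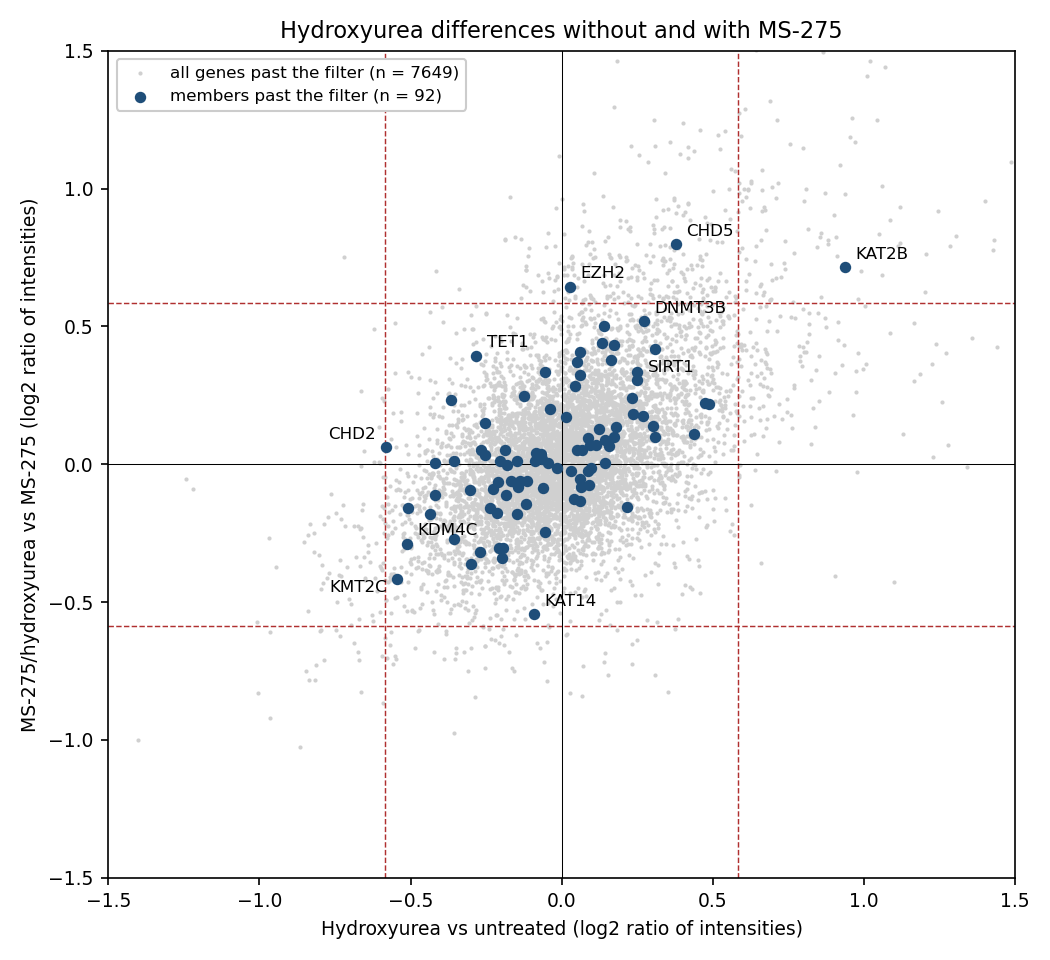
Log2 ratio of intensities with hydroxyurea without MS-275 (horizontal) against that in the presence of MS-275 (vertical) for 92 members (blue) and all 7649 genes past the filter (grey, 12 lie outside the axes). Dashed lines mark 1.5-fold. KAT2B is the 1 member past both, EZH2 and CHD5 pass the upper line alone, and no member passes a lower line.

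Set against untreated cells, the combination of both drugs gave 7 members called higher (KAT2B, KDM1B, KDM7A, ARID3B, ARID5A, KDM3A and CHD5) against 11.7% of all genes, and 9 called lower (ARID1B, PHF19, CHD2, KAT6B, PHF2, ARID1A, KAT5, CHD3 and PHF5A) against 6.84%. These differences ranged from 1.97-fold higher for KAT2B to 2.08 times lower for ARID1B. The median member difference was -0.09 and that of all genes 0.01. KDM5B, called in each MS-275 comparison, was 1.49-fold higher here. CHD3, PHF5A, CHD5 and KDM5B lay so near the limit that another scaling of the arrays moved them across it.

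Non-additivity was taken as the MS-275 difference under hydroxyurea minus that without it, and is 0 where the drugs add up on the log2 scale. By this measure 4 members were called above 0 (TET1, CHD2, EZH2 and KDM7A) against 2.72% of all genes, and 0 below it against 1.57%. The median over the members was 0.07 and over all genes 0.02, and 56 of 92 members (60.9%) lay above 0 against 54.2% of all genes. The median size without regard to sign was 0.145 for members and 0.166 for all genes. The value rests on all 4 arrays, each read once.

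The 4 called members reached it by different routes. For TET1 the value was 0.68, since MS-275 gave -0.63 without and 0.05 with hydroxyurea, as its values above show, and the gene fell under the filter when its 2 clusters were averaged. For CHD2 it was 0.64, and the 3 treated arrays, at 255, 191 and 199, all lay well below the untreated 381. EZH2, the catalytic subunit of PRC2, read 874 untreated, 891 with hydroxyurea, 644 with MS-275 and 1007 with both, for a non-additivity of 0.62. Its lowest array was that with MS-275 alone and its highest that with both drugs, and the hydroxyurea difference was 1.02-fold without and 1.56-fold with MS-275. For KDM7A the value was 0.60 (0.58, short of a call, after a renewed quantile normalisation), because hydroxyurea was 1.29 times lower than untreated while MS-275/hydroxyurea was the highest array. KDM1A, at 0.42, followed them.

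At the other end stood KAT14, an acetyltransferase of the ATAC complex, at -0.45. It read 114 untreated, 107 with hydroxyurea, 148 with MS-275 and 101 with both, so that the array with MS-275 alone was the highest. DNMT3A had -0.37, KMT5C -0.33, the BET protein BRD3 -0.27 and PHF1 -0.25, and none of them reached 1.5-fold.

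**Figure D5:**
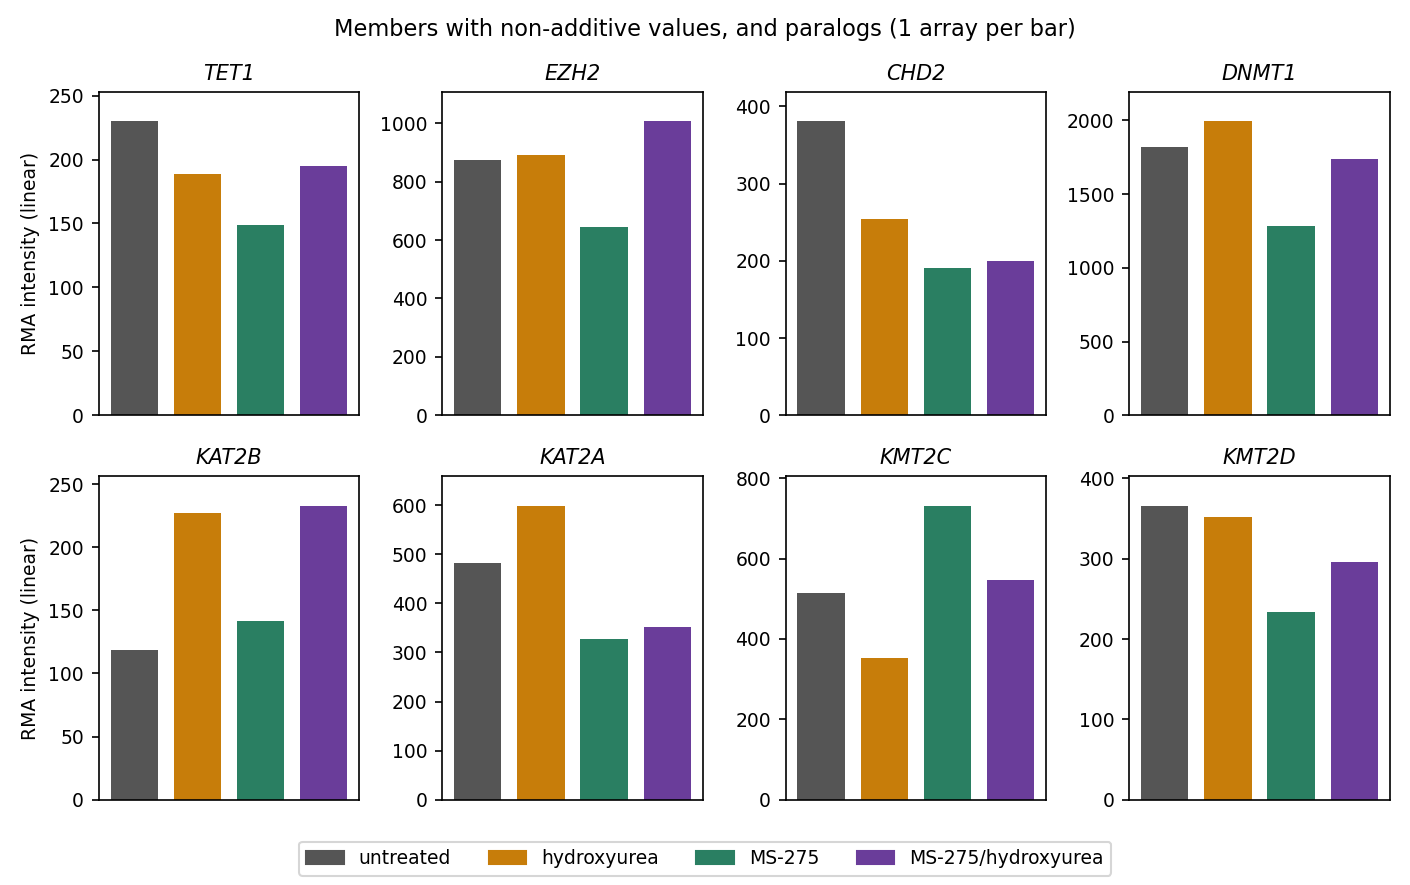
RMA intensity on a linear scale, from 0, on each of the 4 arrays for TET1, EZH2, CHD2 and DNMT1 and for the paralogs KAT2A and KAT2B and KMT2C and KMT2D; each bar is 1 array and has no error. TET1, EZH2 and DNMT1 are lowest with MS-275 alone, KAT2B is high on both hydroxyurea arrays, and KMT2C and KMT2D go opposite ways with MS-275.

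The 4 arrays, normalised together, had median intensities of 45.9 to 47.1. Of 12 colon epithelial marker genes 10 had a named cluster and 4 passed the filter (EPCAM, KRT8, KRT18 and KRT19), with summed intensities over the named ones of 3853 to 4626. CDX2, VIL1 and KRT20 lay under the filter. Of 10 markers of blood, stromal, endothelial, liver and muscle cells 4 were named and 1, DES, passed the filter, with sums of 169.3 to 177.5 on the 4 arrays. The markers did not go one way. KRT19 read 571 untreated, 552 with hydroxyurea, 1083 with MS-275 and 628 with both, while EPCAM read 1152, 1109, 865 and 911. CEACAM5 and LGR5, both under the filter, were 2.20-fold and 1.74-fold higher with MS-275 alone and 3.20-fold and 2.27-fold higher under hydroxyurea. The part of these markers in the values of the members was not tested.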

How the data were processed

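Total RNA of HCT116 cells was hybridised to Affymetrix Human Gene 2.0 ST arrays, 1 array for each of 4 conditions, 4 arrays in all. The authors applied RMA and deposited 1 intensity per array for each of 53617 transcript clusters, on a linear scale as the range of the values shows. Which program ran RMA is not given in the sources used here. Scanner signals were not used. No column of another sample was present among those read (0 left out).

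Clusters were named through the platform's annotation, and the 16098 clusters with exactly 1 symbol were kept. The other 37519, with no symbol or with more than 1, were left out. All 106 member symbols equal symbols of the RefSeq gene table. The brightest cluster stood for each symbol, and log2 ratios were taken between arrays. The filter kept genes with a geometric mean intensity of at least 90.5. Promoter windows were read from the RefSeq table. With 1 array per condition no test was run, and an additive fit with 1 residual degree of freedom was not run either. Counts at a 1.5-fold limit and medians were given for the members beside all 7649 genes past the filter. The scripts were tested on simulated data. Alternatives were no filter, the 75th percentile as filter (an intensity of 238.5), a 2-fold limit and the geometric mean of a symbol's clusters. The others were each array centred on its median and a renewed quantile normalisation.

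The symbol rule for the members used no measured difference. That rule, the gene lists and the alternatives were still set with earlier results of these data known. The genes named were those called in both backgrounds, the 10 highest and 10 lowest with MS-275 and the 5 highest and 5 lowest with hydroxyurea (by the smaller of the 2 differences), the 5 highest and 5 lowest by non-additivity, the brightest of each family, a short list of well-known genes, and from each gene list those called in both backgrounds and up to 4 others. KMT2D, KDM7A-DT, KDM5A, KDM5C, KDM3B, PHF10, BRD7, KRT19, CEACAM5 and LGR5 were added after their values were seen. Python 3.11.15, numpy 2.4.6, pandas 2.3.3 and matplotlib 3.10.9 were used.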

Additional observations from a re-analysis of the deposited data

Results flagged for a closer look

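TET1 was picked out because its MS-275 difference took opposite signs in the 2 backgrounds while one of them was a call. It was -0.63 without hydroxyurea and 0.05 with it, a non-additivity of 0.68. With 1 array per condition the difference was not tested. The second TET1 cluster, at intensities of 8.8 to 13.3 and so under the filter, gave -0.37 and 0.28.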

How the results depend on the processing

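The counts of called members depended on the fold limit and on the filter. At a 2-fold limit 2 members remained called with MS-275 alone (PHF19 and PHF2, lower) and 2 under hydroxyurea (KDM1B and KDM7A, higher), 1 for both drugs against untreated (ARID1B, lower), and 0 for MS-275 in both backgrounds, for hydroxyurea without MS-275, with it or in both backgrounds, and for non-additivity. With the filter at the 75th percentile, 46 members were left. Of these 7 were called with MS-275 under hydroxyurea, 5 with MS-275 in both backgrounds (7 in the main setting), 6 for both drugs and 2 by non-additivity. Hydroxyurea gave 1 call with MS-275, and 0 without it or in both backgrounds. Among the genes this filter removes are PHF19 and ARID1B, called lower with MS-275 in both backgrounds, and KAT2B, CHD5 and KDM7A. With no filter, 7 of 106 members were called by non-additivity. Renewed quantile normalisation gave 2 calls for hydroxyurea without MS-275, the added one being CHD2, lower by -0.59. It also took KDM7A out of the non-additivity calls (0.58). Averaging clusters put TET1 under the filter, so that its 2 calls, with MS-275 alone and by non-additivity, were lost. For both drugs against untreated, centring lost CHD3 and PHF5A, the quantile step lost CHD5, and both gained KDM5B. Centring and averaging kept every count within 1.5 times, and the member medians moved by less than 0.1 under all 6 alternatives. No single-gene call reversed. No paired analysis was possible because each condition had 1 array. With so few arrays the precision of a single value is unknown.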

Other observations

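Among chromatin genes whose symbols the rule does not cover, writers of histone methylation differed in their calls with MS-275. Of 6 genes of H3K9 methylation 4 had a named cluster, 2 of them called lower with MS-275 alone (6.84% of all genes) and 1, SUV39H1, in both comparisons (2.92%), and their median MS-275 differences were -0.49 without and -0.39 with hydroxyurea, beside -0.01 and 0.00 over all genes. SUV39H1, which trimethylates H3K9 in heterochromatin, read 221 untreated, 245 with hydroxyurea, 142 with MS-275 and 162 with both, 1.56 and 1.51 times lower. EHMT2 (G9a), which places dimethyl marks, read 425, 342, 334 and 251, which was no call with MS-275 in either background but 1.69 times below untreated with both drugs. The 5 PRC2 genes outside the rule had 0 calls with MS-275 and medians of -0.23 and -0.07. Over all genes 6.94% were called higher and 6.84% lower without hydroxyurea, and 8.67% and 5.41% with it, so 0 calls are near these shares. Of 4 named genes of H3K36 methylation, SETD2 apart, 2 were called lower with MS-275 alone (6.84% of all genes) and 0 under hydroxyurea (5.41%). NSD1 was 1.71 and 1.39 times lower and NSD2 1.59 and 1.30 times lower.

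Other chromatin genes of the lists that passed the filter and were called in both MS-275 comparisons were INO80D, CHRAC1 and RYBP. Over all genes 4.85% were called higher and 2.92% lower in both. INO80D was 1 of 12 INO80 and SRCAP genes past the filter, CHRAC1 1 of 3 ISWI genes and RYBP 1 of 10 PRC1 genes outside the rule. They are single genes picked by their calls, so they do not set these lists apart. INO80D, a subunit of the INO80 remodeler, read 521 untreated, 511 with hydroxyurea, 254 with MS-275 and 278 with both, or 2.05 and 1.84 times lower, while the ATPase INO80 itself was 1.42 and 1.20 times lower. CHRAC1, a histone-fold subunit of an ISWI complex, was 1.57 and 1.72 times lower. RYBP, of the Polycomb complex PRC1, was the 1 of these called higher, at 485, 588, 762 and 953, or 1.57-fold and 1.62-fold. Of the 7 arginine methyltransferases past the filter 1 was called lower with MS-275 alone (6.84% of all genes), 2 under hydroxyurea (5.41%) and 0 in both (2.92%). With both drugs against untreated 4 were called lower (6.84% of all genes), PRMT1 at 1.77, PRMT5 at 1.61, CARM1 at 1.56 and PRMT3 at 1.55 times.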
